A study of Mus musculus with 9 samples.

Results

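Collagen chain genes were compared between chemically induced cardiomyocyte-like cells (CiCM), cardiomyocytes taken from mouse heart (CM) and mouse embryonic fibroblasts (MEF). The members were the genes whose symbol has the form Col, digits, a, digits and which had a probe set naming no other gene, 42 of the 18193 genes of the array table. They were sorted by the protein's known assembly into 11 fibrillar chains, 9 network chains, 9 FACIT chains (fibril-associated collagens with interrupted helices) and 13 others. CiCM, the first group, were made from fibroblasts with a chemical cocktail of 10 µM CHIR99021 (a GSK3 inhibitor), 10 µM RepSox (which blocks the TGF-beta receptor), 50 µM Forskolin (an activator of adenylyl cyclase), 0.5 mM VPA (valproic acid, a histone deacetylase inhibitor), 5 µM Parnate (an inhibitor of monoamine oxidases and LSD1) and 1 µM TTNPB (a retinoic acid receptor agonist), and beating clusters were picked on day 24. CM were isolated directly from the heart, and the labels give neither the age nor the strain of the mice. MEF were isolated from C57BL/6 embryos at embryonic day 13.5 and are the cell type from which CiCM were induced. Total RNA of 3 samples per group was hybridised to 9 Affymetrix arrays. The titles name biological replicates, but nothing says whether they came from separate cultures or animals, so p-values measure the spread between these samples, which may be technical.

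Collagens are extracellular matrix proteins whose chains wind around each other into a helical trimer. Fibrillar collagens form the rope-like fibrils of connective tissue, network collagens form sheets such as the scaffold of basement membranes, and FACIT collagens sit on fibril surfaces and link them to other matrix. In the heart most fibrillar collagen is made by fibroblasts, and type IV collagen surrounds cardiomyocytes and capillaries as part of the basement membrane.

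Values are log2 signals as deposited, so a difference of 1 is a doubling of signal, and a level of one gene is not set against a level of another. A gene was tested if its highest group mean reached 6.58, the median of the table, which 12559 genes did, and it was called at a limma adjusted p under 0.05 together with a difference of at least 1. Of the 42 collagen genes 31 passed this filter: 10 fibrillar, 7 network, 5 FACIT and 9 other genes. The 11 below it were Col11a2, Col4a3, Col10a1, Col9a2, Col9a3, Col20a1, Col22a1, Col6a4, Col6a5, Col13a1 and Col17a1, with highest group means of up to 6.11 (Col20a1). The members just inside the line were Col26a1 at 6.65 and Col9a1 at 6.72, and those just outside were Col20a1 at 6.11 and Col6a4 at 6.05. Mean signals reached the line in 28 of 42 members in CiCM, 21 in CM and 26 in MEF. A gene silent in 2 groups passed the filter only through the group where it was high, so counts over the 31 describe the genes that passed. The fit pools the spread of all 3 groups for each gene. An SE, interval or p-value for 2 groups therefore also depends on the spread of the third.

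The labelled cell types were checked against marker genes. Myh6 and Tnni3, contractile genes of heart muscle, averaged 7.13 and 5.77 in CiCM, 15.72 and 15.15 in CM, and 2.60 and 3.05 in MEF. These are 2 of 10 cardiomyocyte markers, of which 6 reached the line in CiCM, 10 in CM and 2 in MEF. Against MEF, CiCM calls on this list were 7 higher, 0 lower and 3 neither. Against CM, all 10 were lower. Myl2, Actc1 and Tnnt2 stood high in CiCM (13.35, 13.66 and 14.50), with MEF means of 4.89, 7.14 and 7.60. Added up, the list gave 47111.5 to 48028.2 in CiCM, 311631 to 400955 in CM and 478.4 to 678.6 in MEF. CiCM carried 10 of 10 skeletal muscle markers above the line, with summed signals of 122911 to 137121 against 390.1 to 596.3 in CM and 244.5 to 330.8 in MEF. CM arrays also carried 13 of 13 fibroblast markers and 9 of 9 endothelial markers above the line. Of 8 pericyte and smooth muscle markers 4 were called higher and 3 lower in CM than in MEF, with Rgs5, a pericyte gene, at 8.82 in CiCM, 14.39 in CM and 9.55 in MEF. Pdgfrb, on the same list, went the other way, at 12.49 in CiCM, 11.59 in CM and 13.22 in MEF. Des, also on it, was at 14.01 in CiCM, 13.82 in CM and 9.60 in MEF. All 7 macrophage markers were called lower in CiCM than in MEF, with summed signals of 1282 to 1692.5 in CiCM, 8356 to 10165 in CM and 9198.5 to 9514 in MEF. The part of pericyte and macrophage RNA in the collagen signals was not tested. CM replicate 1 was unlike the remaining CM arrays, with Nppa, the atrial natriuretic peptide gene, at 15.24 against 12.50 and 12.05. Without that array the collagen calls numbered 5 higher and 6 lower for CiCM against MEF, 5 and 19 for CM against MEF, and 19 and 2 for CiCM against CM. Array medians differed by 0.06 for CiCM minus MEF, 0.37 for CM minus MEF and -0.31 for CiCM minus CM, and 18 hybridisation control probe sets differed by 0.23, 0.80 and -0.58 in the same comparisons.

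Collagen signals of CiCM lay closer to those of MEF than to those of CM by the number of calls. For CiCM against MEF, called differences numbered 4 higher (Col23a1, Col19a1, Col25a1 and Col14a1) and 6 lower (Col2a1, Col11a1, Col5a3, Col16a1, Col4a1 and Col4a2) among 31 tested members. Over all genes tested, 11.6% were called higher and 12.2% lower, 23.8% in either direction. Arrays of CiCM and MEF did not overlap in 20 of 31 members, against 68.5% of all genes. The median collagen difference was -0.18, against -0.03 over all genes tested. In CM against MEF, 4 members were called higher and 20 lower, with a median of -1.89 against -0.03 over all genes, where 22.1% of genes were called higher and 21.8% lower, 43.9% in either direction. Here 27 of 31 members did not overlap, against 75.2% of all genes. In CiCM against CM, 19 members were called higher and 2 lower, with a median of 1.76 against -0.03 over all genes, where 16.5% were called higher and 19% lower, 35.5% in either direction. Here 23 of 31 did not overlap, against 67.9% of all genes. The most frequent pattern, in 14 of 31 members, was a call as lower in CM than in MEF and as higher in CiCM than in CM without a call between CiCM and MEF. The share of all genes with this pattern was not counted, so whether it is particular to collagens was not tested. Each pair of these comparisons shares arrays, so the 3 counts are not independent.

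**Figure D1:**
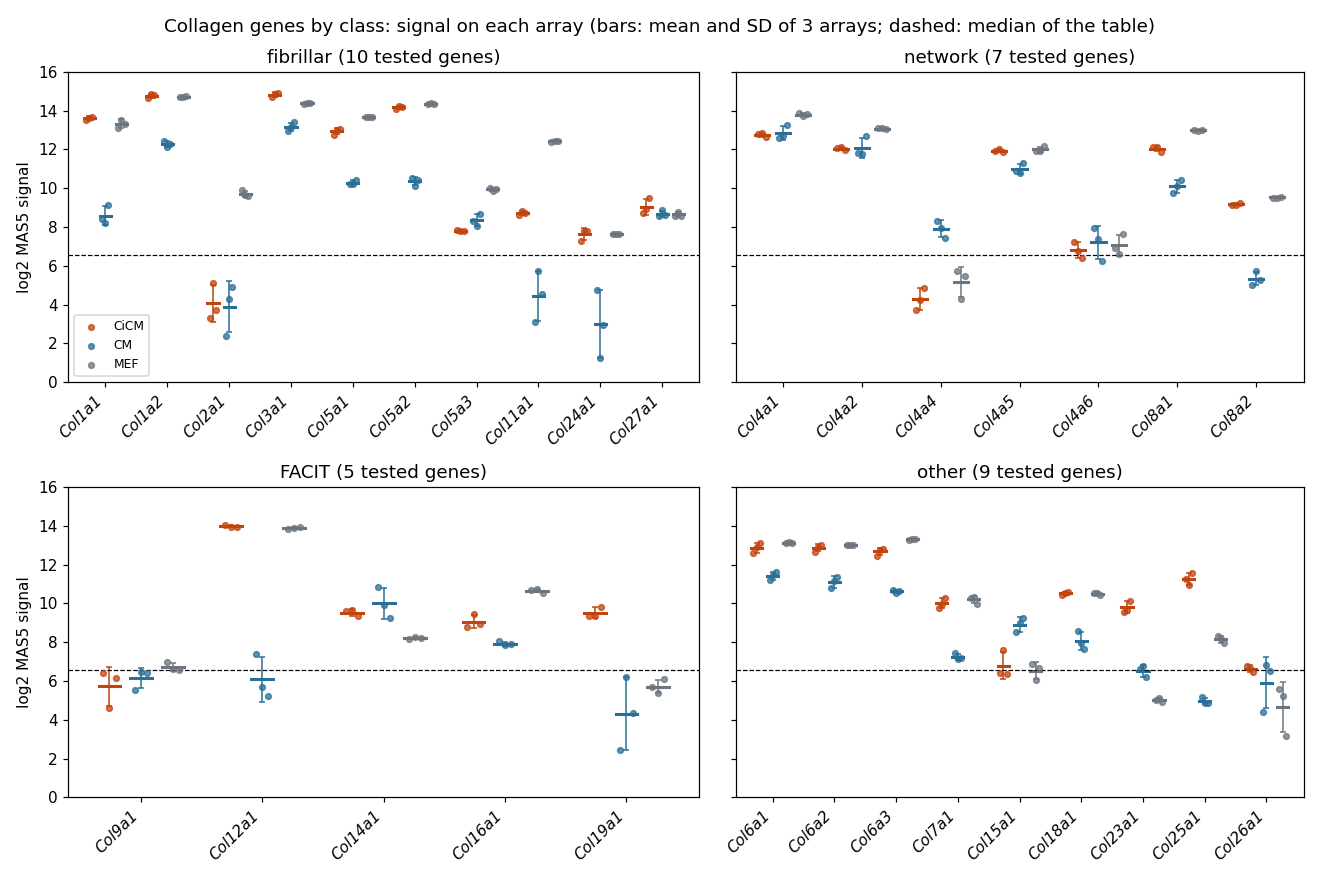
Log2 signal of the 31 tested collagen genes in 4 panels by class, with 1 point per array, bars for the mean and SD of 3 arrays (CiCM, CM and MEF from left to right within each gene) and a dashed line at 6.58, the median of the table. Most fibrillar genes lie at similar levels in CiCM and MEF and lower in CM, while Col23a1, Col25a1 and Col19a1 are highest in CiCM and Col4a4 and Col15a1 are highest in CM.

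Since chains of one trimer are co-expressed in many tissues, the starts of several collagen genes are shown before their values. RefSeq promoter entries on GRCm38.p6 were matched for 33 of the 42 members, with 36 windows in all. Col4a1 and Col4a2, whose signals differed alike between groups, are transcribed away from each other on chromosome 8, and their starts in that table, 11312826 on the minus strand and 11312805 on the plus strand, span 22 bases. That stretch, chr8:11312805-11312826 on the plus strand, holds a GC box in capitals.
Col4a2: agtgcgcGGGCGGcgtctccaa
The next 2 genes were lower in CiCM than in MEF, and the stretches shown are the plus strand of chr3:114030290-114030478 and the minus strand of chr9:20815118-20815317, both ending before the outermost annotated start.
Col11a1: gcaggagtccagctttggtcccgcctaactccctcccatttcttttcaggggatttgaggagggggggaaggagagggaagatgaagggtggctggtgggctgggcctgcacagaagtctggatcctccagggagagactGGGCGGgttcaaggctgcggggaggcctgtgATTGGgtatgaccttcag
Col5a3: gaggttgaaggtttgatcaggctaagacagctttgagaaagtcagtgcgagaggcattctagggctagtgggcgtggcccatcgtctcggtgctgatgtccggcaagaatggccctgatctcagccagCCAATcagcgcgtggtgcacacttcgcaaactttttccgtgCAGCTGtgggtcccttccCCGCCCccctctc
The last 2 were lower in CM than in MEF and not called between CiCM and MEF, and are shown on the plus strand of chr6:4505368-4505617 and chr1:45311288-45311537.
Col1a2: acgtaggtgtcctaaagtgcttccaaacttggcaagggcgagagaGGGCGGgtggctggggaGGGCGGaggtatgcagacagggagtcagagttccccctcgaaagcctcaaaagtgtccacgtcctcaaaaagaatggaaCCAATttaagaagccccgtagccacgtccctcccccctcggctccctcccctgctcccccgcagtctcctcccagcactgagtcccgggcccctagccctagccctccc
Col3a1: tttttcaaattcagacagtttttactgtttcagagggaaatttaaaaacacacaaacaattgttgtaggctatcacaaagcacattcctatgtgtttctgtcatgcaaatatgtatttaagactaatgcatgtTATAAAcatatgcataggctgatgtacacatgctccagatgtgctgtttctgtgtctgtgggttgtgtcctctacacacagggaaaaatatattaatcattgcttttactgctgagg
The Col4a2 stretch lies after both starts, outside the windows searched. In the other stretches capitals mark the motifs searched on both strands in the 250 bases before each start: CCAAT (or ATTGG), the GC box GGGCGG (or CCGCCC), the E-box CAGCTG that myogenic factors bind, which reads the same on both strands, and TATAAA (or TTTATA). None of the motifs contains another. The Col11a1 and Col5a3 stretches hold 189 and 200 bases and stop before the end of the windows searched. A further GC box, not shown, lay 19 bases before the start for Col11a1 and 41 for Col5a3. GGGCGG stood in 21 of 36 collagen windows, against 32.7% of 32851 windows in all. CCAAT stood in 13 (33.8% of all windows), CAGCTG in 6 (13.0%) and TATAAA in 5 (12.4%). The windows of Col19a1, Col23a1 and Col25a1, all higher in CiCM than in the other groups, held no CAGCTG within these bases. Most windows lack it, so its absence there says little. A match is a string of letters and not a shown binding site.

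Among fibrillar chains none was called higher than in MEF in CiCM or in CM. For CiCM 3 of 10 were lower, and for CM 9 of 10. The type I chains Col1a1 and Col1a2, which form the main collagen of skin, bone and tendon, were not called between CiCM and MEF. Col1a1 (Entrez Gene 12842, chromosome 11) was at 13.50, 13.62 and 13.69 in CiCM, 8.41, 8.19 and 9.14 in CM, and 13.09, 13.54 and 13.33 in MEF. The CiCM and MEF arrays overlapped and every CM array lay below both. The difference was 0.29 ± 0.21 (SE, limma adjusted p = 0.279) for CiCM minus MEF and -4.74 ± 0.21 (limma adjusted p = 1.38e-08) for CM minus MEF. Col1a2 (chromosome 6) was at 14.66, 14.84 and 14.83 in CiCM, 12.44, 12.13 and 12.29 in CM, and 14.70, 14.73 and 14.74 in MEF. It differed by 0.06 (95% interval -0.15 to 0.27) for CiCM minus MEF and by -2.43 for CM minus MEF. For CM minus MEF the other Col1a2 probe sets gave -4.07 and -2.75. Both genes were higher in CiCM than in CM, by 5.03 and 2.49. Their other probe sets gave a difference of the opposite sign between CiCM and MEF, at -0.16 for Col1a1 and down to -0.40 for Col1a2.

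Col3a1 encodes the type III chain of vessel walls and other stretchable tissue. Its signals were 14.70, 14.85 and 14.93 in CiCM, 12.96, 13.14 and 13.39 in CM, and 14.35, 14.38 and 14.41 in MEF. Every CiCM array lay above every MEF array and every CM array below. Col3a1 differed by 0.45 ± 0.11 (SE) in CiCM minus MEF, which had a limma adjusted p of 0.00622 but was under the minimum difference. The other Col3a1 probe set gave 1.08 for CiCM minus MEF. It was lower in CM than in MEF with a difference of -1.21 and higher in CiCM than in CM by 1.66. The mean over its probe sets gave -1.97 and 2.73 for these Col3a1 differences, and levelling arrays on hybridisation controls, whose signals differed between groups as given above, gave -2.02 for CM minus MEF. Its neighbour Col5a2, which lies on the same chromosome (Col3a1 at chr1:45311538-45349706, Col5a2 at chr1:45374331-45503282), encodes a type V chain, a component that starts fibrils and limits their width. Col5a2 was at 14.18 ± 0.08 in CiCM, 10.36 ± 0.20 in CM and 14.36 ± 0.03 in MEF (SD, n = 3), and differed by -0.18 between CiCM and MEF and by -4.00 between CM and MEF.

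The other type V chains are Col5a1 and Col5a3. Col5a1 was at 12.76, 13.02 and 13.05 in CiCM, 10.20, 10.21 and 10.43 in CM, and 13.66, 13.69 and 13.65 in MEF. It differed from MEF by -0.72 in CiCM (limma adjusted p = 1.42e-04, under the minimum difference; -0.15 to -0.72 over 3 probe sets) and fell by 3.39 in CM. Col5a3 was at 7.86, 7.77 and 7.78 in CiCM, 8.32, 8.07 and 8.67 in CM, and 9.99, 9.86 and 9.96 in MEF, with no overlap between any groups. It was the type V chain called lower in CiCM than in MEF, with a difference of -2.13 ± 0.16 (SE, limma adjusted p = 1.87e-06), and it was also lower in CM, with a difference of -1.58 ± 0.16 (limma adjusted p = 6.47e-06; -2.39 with arrays levelled on hybridisation controls).

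The fibrillar chains Col2a1 and Col11a1 are known from cartilage. Col2a1, the main fibril chain of cartilage, was at 3.32, 5.13 and 3.73 in CiCM, 2.40, 4.30 and 4.93 in CM, and 9.90, 9.66 and 9.58 in MEF. It was above the line in MEF alone, and its differences were -5.65 ± 0.69 for CiCM minus MEF (SE, limma adjusted p = 6.87e-05) and -5.83 ± 0.69 for CM minus MEF (limma adjusted p = 2.30e-05). As alternatives that damp low signals, 32 or a constant 4 times as large was added to each linear signal. With the larger constant the Col2a1 differences were -2.72 and -2.73. Col11a1, a type XI chain that joins type II fibrils and also occurs outside cartilage, was at 8.64, 8.83 and 8.71 in CiCM, 3.09, 5.71 and 4.54 in CM, and 12.38, 12.45 and 12.46 in MEF. The 3 groups did not overlap, with CiCM between the other groups. Its differences were -3.70 ± 0.49 for CiCM minus MEF (SE, limma adjusted p = 1.15e-04) and -7.99 ± 0.49 for CM minus MEF (limma adjusted p = 1.32e-07). With the larger constant added, Col11a1 differed by -5.19 for CM minus MEF and by 1.84 for CiCM minus CM, against 4.29 without it. Beside these, the chondrocyte markers reached the line in 1 of 12 genes in CiCM, 2 in CM and 3 in MEF, with summed signals of 824.7 to 1001 in CiCM, 871.1 to 1953 in CM and 736.6 to 817 in MEF. The defining markers Acan and Matn1 were below the line in each group, with means of 5.92 and 3.70 in CiCM, 5.55 and 4.47 in CM, and 6.10 and 4.52 in MEF, and Sox9 averaged 6.47 in CiCM, 5.99 in CM and 6.91 in MEF.

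The remaining fibrillar chains are less studied. Col24a1, a chain described in developing bone, was at 7.29, 7.81 and 7.81 in CiCM, 4.75, 1.25 and 2.95 in CM, and 7.62, 7.62 and 7.65 in MEF. CiCM and MEF overlapped, and the difference between them was 0.01 (95% interval -1.59 to 1.61). This interval also carries the spread of CM, with an SD of 1.75 against 0.30 in CiCM and 0.02 in MEF. Col24a1 was lower in CM than in MEF with a difference of -4.65 and higher in CiCM than in CM by 4.66, values that became -2.41 and 2.43 with 32 added to the linear signals and -1.22 and 1.23 with the larger constant. Col27a1, expressed in cartilage and some epithelia, was not called in any comparison and averaged 9.05 ± 0.41 in CiCM, 8.69 ± 0.15 in CM and 8.65 ± 0.12 in MEF (SD, n = 3). Col11a2 was under the filter, with means of 5.93 in CiCM, 5.43 in CM and 4.76 in MEF.

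**Figure D2:**
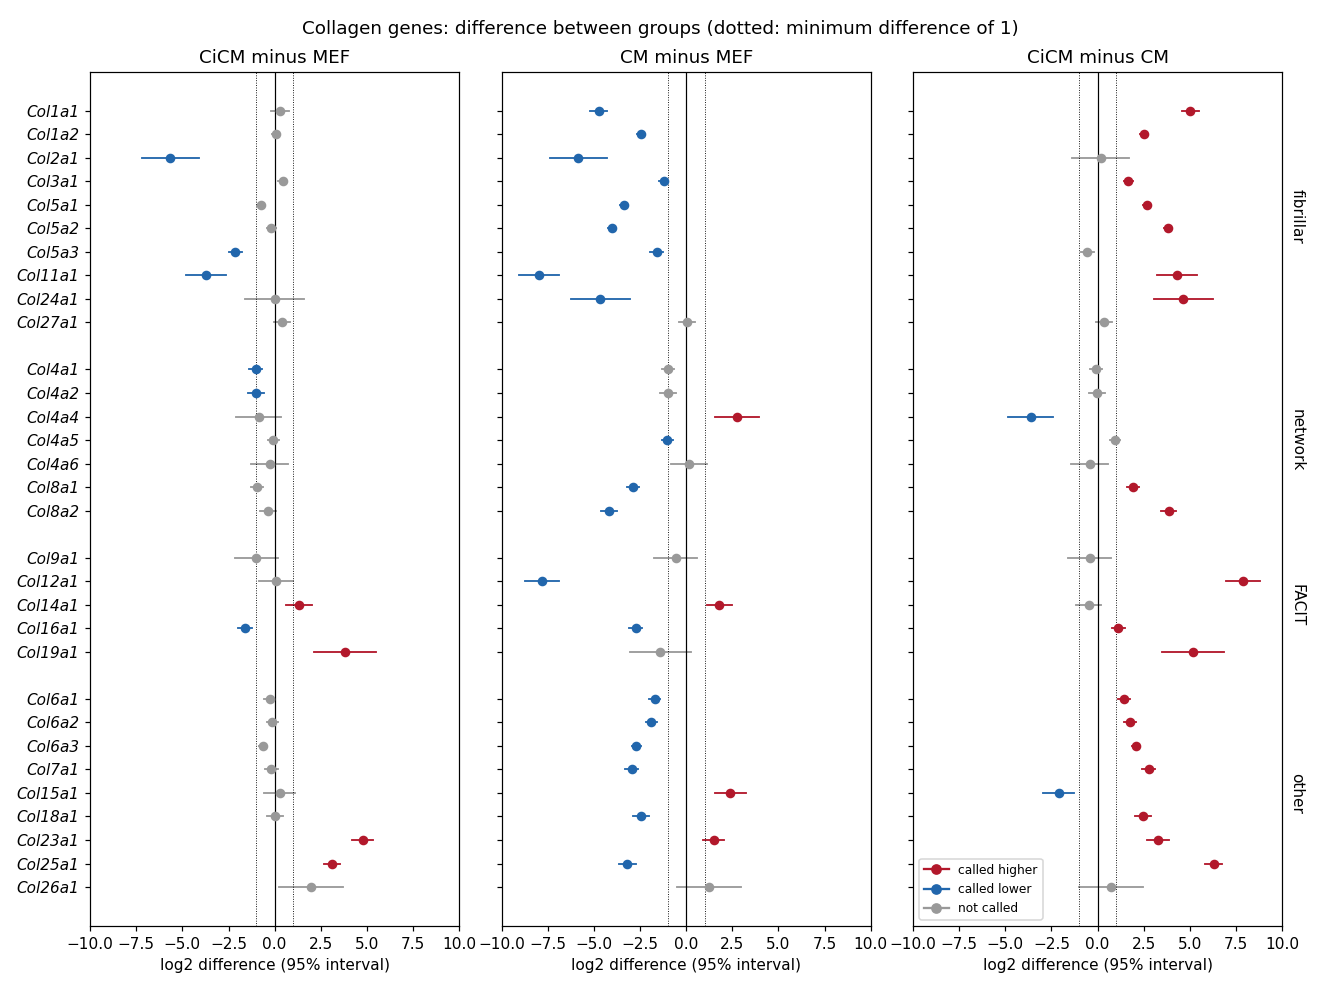
Log2 differences of the 31 tested collagen genes for CiCM minus MEF, CM minus MEF and CiCM minus CM, as points with 95% intervals from the limma fit, grouped by class, with dotted lines at the minimum difference of 1. Calls as lower number 6 for CiCM minus MEF and 20 for CM minus MEF, and calls as higher number 19 for CiCM minus CM.

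Of 7 tested network chains, 1 was higher and 3 were lower in CM than in MEF. In CiCM 2 were called lower than in MEF and 0 higher. All 7 differences were below 0, as were 6530 of the 12559 over all genes tested. For Col4a4, Col4a5 and Col4a6 the CiCM and MEF arrays overlapped. Col4a1 and Col4a2 make the common type IV collagen of basement membranes. Col4a1 (Entrez Gene 12826) was at 12.78, 12.85 and 12.66 in CiCM, 12.58, 12.68 and 13.24 in CM, and 13.87, 13.73 and 13.81 in MEF. Col4a2 (Entrez Gene 12827) was at 12.05, 12.12 and 11.97 in CiCM, 11.80, 11.77 and 12.69 in CM, and 13.08, 13.08 and 13.04 in MEF. For both genes each MEF array lay above each CiCM and CM array, and CiCM and CM overlapped. CiCM minus MEF was -1.04 ± 0.15 for Col4a1 (SE, limma adjusted p = 1.99e-04) and -1.02 ± 0.20 for Col4a2 (limma adjusted p = 0.00167). These 2 calls sat at the minimum difference and were lost without CiCM replicate 3, at -0.99 and -0.98. CM minus MEF was -0.97 and -0.98, just under the minimum difference, and was called without CM replicate 3, at -1.17 and -1.29, and under quantile normalization (-1.18 and -1.05), median centring (-1.33 and -1.35) and levelling on hybridisation controls (-1.77 and -1.79). CM replicate 3 was the highest CM array for both genes.

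Col4a3, Col4a4 and Col4a5 encode the chains of specialised basement membranes such as that of the kidney glomerulus. Col4a4 was at 3.73, 4.24 and 4.86 in CiCM, 8.30, 7.97 and 7.45 in CM, and 5.71, 4.28 and 5.47 in MEF. It was above the line in CM alone, was higher in CM than in MEF by 2.75 ± 0.54 (SE, limma adjusted p = 9.69e-04), and was lower in CiCM than in CM with a difference of -3.63 ± 0.54 (limma adjusted p = 1.76e-04). With the larger constant added, the Col4a4 differences were 1.16 and -1.32. Its neighbour Col4a3, whose annotated ends overlap those of Col4a4 (Col4a4 at chr1:82448419-82587034, Col4a3 at chr1:82586921-82722059), was under the filter by the probe set with the highest mean, at 4.60 in CiCM, 4.82 in CM and 4.44 in MEF. The other Col4a3 probe set was at 1.45, 2.22 and 2.40 in CiCM, 7.09, 6.09 and 7.41 in CM, and 1.67, 2.59 and 1.79 in MEF, with CM above both other groups and no test of it. Col4a5 was at 11.89, 12.03 and 11.87 in CiCM, 10.88, 10.79 and 11.29 in CM, and 11.91, 11.94 and 12.16 in MEF. Its difference of -1.02 ± 0.13 (SE, limma adjusted p = 4.39e-05) for CM minus MEF fell under the minimum without CM replicate 1 (-0.96), CM replicate 2 (-0.92) or MEF replicate 3 (-0.94), and under quantile normalization, the larger constant and the mean over probe sets (each -0.97). Col4a6 was not called in any comparison, with means of 6.79 in CiCM, 7.21 in CM and 7.06 in MEF.

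The type VIII chains Col8a1 and Col8a2 form hexagonal sheets under the corneal endothelium and occur in vessel walls. Col8a1 was at 12.11, 12.13 and 11.87 in CiCM, 9.77, 10.11 and 10.42 in CM, and 12.99, 12.95 and 13.02 in MEF. Its difference for CiCM minus MEF was -0.95 ± 0.14 (SE, limma adjusted p = 3.12e-04), under the minimum, and it was called under quantile normalization (-1.04), median centring (-1.01), levelling on hybridisation controls (-1.18) and the mean over its probe sets (-1.51). Col8a2 was at 9.15, 9.14 and 9.26 in CiCM, 5.01, 5.71 and 5.28 in CM, and 9.50, 9.51 and 9.57 in MEF. Both were lower in CM than in MEF, with differences of -2.89 for Col8a1 and -4.20 for Col8a2, and higher in CiCM than in CM, by 1.94 and 3.85. With the larger constant added, the Col8a2 differences were -2.36 and 2.07. Col10a1, the chain of hypertrophic cartilage, was below the line in every group (5.08 in CiCM, 4.08 in CM and 4.36 in MEF).

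FACIT chains moved in both directions. In CiCM 2 of 5 were higher and 1 was lower than in MEF. In CM 1 was higher and 2 were lower. Col12a1, which coats type I fibrils in tendon and other dense tissue, was at 14.04, 13.96 and 13.96 in CiCM, 7.40, 5.69 and 5.21 in CM, and 13.86, 13.90 and 13.96 in MEF. The difference was 0.08 (95% interval -0.86 to 1.02) for CiCM minus MEF, -7.81 ± 0.42 (SE, limma adjusted p = 5.55e-08) for CM minus MEF and 7.88 ± 0.42 (limma adjusted p = 1.06e-07) for CiCM minus CM. CM arrays 2 and 3 lay below the line. The Col12a1 SD was 1.16 in CM and 0.05 in CiCM and in MEF, so the CiCM minus MEF interval carries the spread of CM. The mean over the 4 probe sets of Col12a1, of which 2 had no group mean at the line, gave -4.30 for CM minus MEF and 4.65 for CiCM minus CM. For CiCM minus MEF the other Col12a1 probe set that reached the line gave a difference of the opposite sign, -0.62, without overlap.

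Col14a1, a FACIT chain found with type I fibrils in skin, tendon and muscle, was higher than in MEF in both groups. It was at 9.59, 9.66 and 9.34 in CiCM, 10.86, 9.91 and 9.27 in CM, and 8.15, 8.26 and 8.24 in MEF. CiCM and CM overlapped and both lay above MEF. The difference from MEF was 1.31 ± 0.31 in CiCM (SE, limma adjusted p = 0.00496) and 1.79 ± 0.31 in CM (limma adjusted p = 3.94e-04). The CM call was lost with arrays levelled on hybridisation controls (0.99). Dcn and Lum, small proteoglycans listed as fibroblast markers, were also higher than in MEF in both groups, with means of 13.57 and 12.44 in CiCM, 14.03 and 12.68 in CM, and 12.11 and 9.60 in MEF. The list as a whole moved in both directions: of 13 fibroblast markers 3 calls were higher and 3 lower for CiCM against MEF, and 5 and 7 for CM against MEF.

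Col19a1 encodes a FACIT chain of basement membrane zones. Its signals were 9.34, 9.36 and 9.84 in CiCM, 2.42, 6.21 and 4.34 in CM, and 5.69, 5.37 and 6.08 in MEF. Only the CiCM arrays lay above the line. Col19a1 was higher in CiCM than in MEF by 3.80 ± 0.75 (SE, limma adjusted p = 0.00172) and higher in CiCM than in CM by 5.19 ± 0.75 (limma adjusted p = 1.42e-04). A second Col19a1 probe set gave 2.55 and 4.58, the mean over 3 probe sets gave 1.84 and 2.91, and with the larger constant added the differences were 2.25 and 2.44. The CM minus MEF difference was -1.39 (limma adjusted p = 0.121), and it was called without CM replicate 2 (-2.34), under quantile normalization (-1.73), with median centring (-1.76) and with levelling on hybridisation controls (-2.20).

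Col16a1, a FACIT chain of skin and smooth muscle, was lower than in MEF in both groups. It was at 8.80, 9.44 and 8.93 in CiCM, 8.04, 7.84 and 7.89 in CM, and 10.69, 10.73 and 10.55 in MEF, and no groups overlapped. The differences from MEF were -1.60 ± 0.16 in CiCM and -2.73 ± 0.16 in CM (SE, limma adjusted p = 1.81e-05 and 1.12e-07). The difference of 1.13 for CiCM minus CM was lost without CiCM replicate 2 (0.94) and with the larger constant added (0.84), and was 1.71 with levelling on hybridisation controls. Col9a1, a cartilage FACIT, was not called by the probe set used, with differences of -0.99 for CiCM minus MEF and -0.57 for CM minus MEF. Its second probe set was at 5.98, 3.26 and 2.45 in CiCM, 3.64, 3.61 and 4.52 in CM, and 7.88, 8.18 and 8.10 in MEF, with MEF above the other groups. With the probe set of highest group mean in place of that of highest overall mean, an alternative chosen after seeing the data, Col9a1 was called lower in CiCM (-4.16, limma adjusted p = 0.00214) and in CM (-4.13, limma adjusted p = 0.00132). The mean over its probe sets was also called, at -2.57 and -2.35. Col9a2, Col9a3, Col20a1 and Col22a1, the last a chain of myotendinous junctions, were under the filter, and Col22a1 averaged 5.50 in CiCM, 5.26 in CM and 5.47 in MEF.

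**Figure D3:**
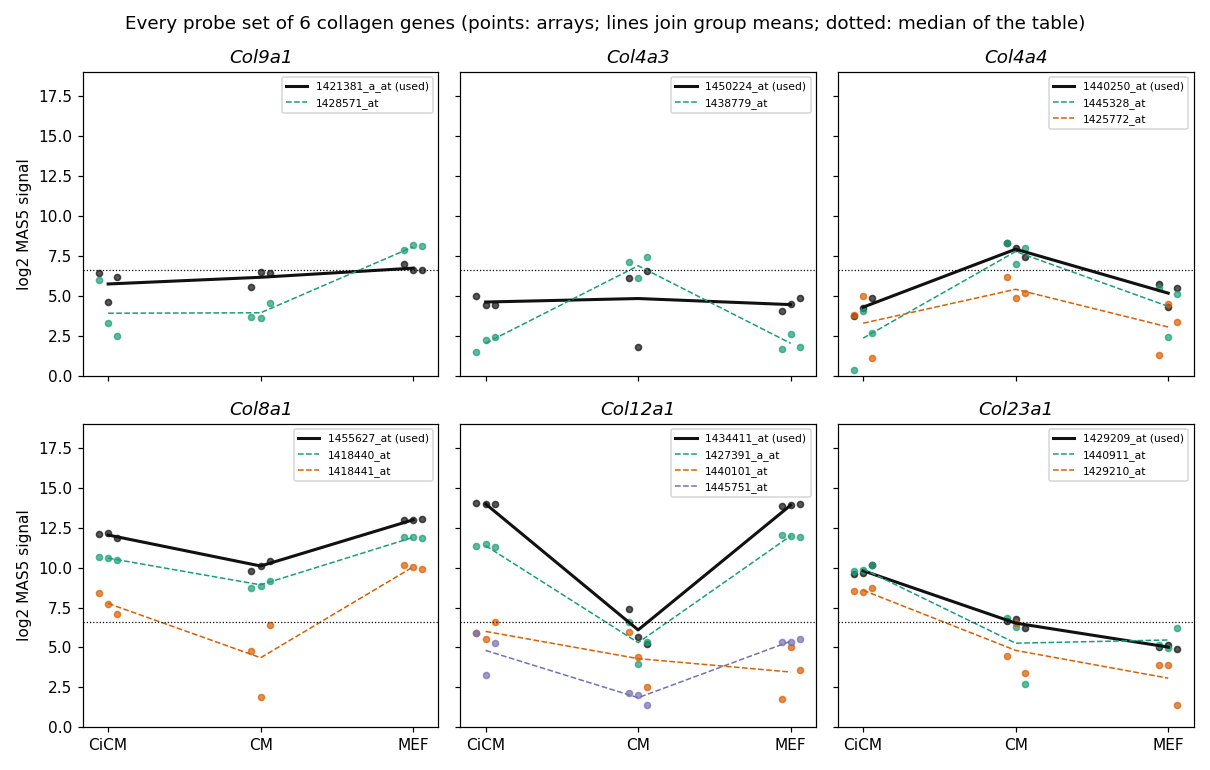
Log2 signal of every probe set of Col9a1, Col4a3, Col4a4, Col8a1, Col12a1 and Col23a1, with points for arrays in CiCM, CM and MEF, lines joining group means, a black line for the probe set used and a dotted line at 6.58. The second probe set of Col9a1 is near 8 in MEF and near 4 in CiCM and CM, and that of Col4a3 is near 7 in CM and near 2 in CiCM and MEF.

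The remaining class holds the beaded-filament chains of type VI, the anchoring-fibril chain Col7a1, basement membrane chains and chains that span the cell membrane. Of 9 tested members, 2 were higher and none was lower in CiCM than in MEF, while in CM 2 were higher and 6 lower. The 2 that were higher in CiCM are both transmembrane collagens. Col13a1 and Col17a1, also transmembrane, were under the filter, with highest group means of 5.63 and 3.38. Col23a1 (Entrez Gene 237759, chr11:51289679-51583925) was at 9.58, 9.68 and 10.15 in CiCM, 6.63, 6.75 and 6.19 in CM, and 5.02, 5.14 and 4.92 in MEF. The groups did not overlap and CiCM was the highest. CiCM minus MEF was 4.78 ± 0.26 (SE, limma adjusted p = 1.90e-07) and CiCM minus CM was 3.28 ± 0.26 (limma adjusted p = 1.64e-06). The 3 probe sets of Col23a1 gave 4.45 to 5.50 for CiCM minus MEF and 3.28 to 4.65 for CiCM minus CM. With the larger constant added, Col23a1 differed by 2.67 for CiCM minus MEF. The Col23a1 means of CM (6.53) and MEF (5.03) both lay below the line, so no fold is given between them. CM was called higher in the fit (limma adjusted p = 3.95e-04). This difference was not shared by all 3 probe sets, whose log2 differences ran from -0.20 to 1.74, and was lost with 32 added (0.95), the larger constant added (0.46), levelling on hybridisation controls (0.69) and the mean over probe sets (1.01, limma adjusted p = 0.123).

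Col25a1, a transmembrane collagen that in mice is needed in muscle for motor axons to grow in, was at 11.26, 10.93 and 11.57 in CiCM, 5.16, 4.86 and 4.88 in CM, and 8.31, 8.18 and 7.95 in MEF. The groups were fully separate, with CiCM highest and CM lowest. CiCM minus MEF was 3.11 ± 0.20 (SE, limma adjusted p = 6.22e-07), CM minus MEF was -3.18 ± 0.20 (limma adjusted p = 1.65e-07) and CiCM minus CM was 6.29 ± 0.20 (limma adjusted p = 4.11e-09). The second probe set of Col25a1 had its mean below the line in every group, and the mean over both gave smaller differences of 1.33, -1.58 and 2.91, while the larger constant gave -1.37 for CM minus MEF and 4.01 for CiCM minus CM. The skeletal muscle markers were also highest in CiCM, with Myog, a myogenic regulator, at 12.59 in CiCM, 3.89 in CM and 4.03 in MEF, and Myh8, a perinatal myosin, at 14.46 in CiCM, 3.73 in CM and 0.80 in MEF, where 1 array was at 0.00. The part of muscle RNA in the levels of Col19a1, Col23a1 and Col25a1 was not tested. Col26a1 was at 6.80, 6.69 and 6.45 in CiCM, 4.43, 6.81 and 6.53 in CM, and 5.61, 5.21 and 3.18 in MEF. Its means were 6.65 in CiCM, 5.92 in CM and 4.67 in MEF. Its difference of 1.98 for CiCM minus MEF had a limma adjusted p of 0.0537. It was called without CM replicate 1 (1.98), without MEF replicate 1 (2.45), with 32 added (1.11) and in a fit of the 2 groups alone, and without CM replicate 1 it was also called higher in CM than in MEF.

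The type VI chains Col6a1, Col6a2 and Col6a3, which form a pericellular network in muscle and other tissue, were not called between CiCM and MEF and were lower in CM. Col6a1 averaged 12.87 ± 0.26 in CiCM, 11.43 ± 0.22 in CM and 13.14 ± 0.01 in MEF (SD, n = 3). Col6a2 averaged 12.87 ± 0.18 in CiCM, 11.11 ± 0.29 in CM and 13.00 ± 0.01 in MEF. Col6a3 averaged 12.68 ± 0.19 in CiCM, 10.62 ± 0.08 in CM and 13.31 ± 0.03 in MEF. The CM minus MEF differences of the 3 genes were -1.71, -1.89 and -2.69, and Col6a3 differed by -0.63 for CiCM minus MEF (limma adjusted p = 3.88e-04, under the minimum difference). Col7a1, which anchors epidermis to dermis, was at 9.77, 9.99 and 10.28 in CiCM, 7.42, 7.13 and 7.19 in CM, and 10.30, 10.33 and 9.99 in MEF. It was lower in CM than in MEF with a difference of -2.96 and higher in CiCM than in CM by 2.77, and CiCM and MEF overlapped. Type VI also includes Col6a4 and Col6a5, which were under the filter.

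Col15a1 and Col18a1 are related basement membrane collagens with opposite positions in CM. Col15a1, a chain found around muscle fibres and capillaries, was at 6.42, 7.62 and 6.36 in CiCM, 8.51, 8.97 and 9.26 in CM, and 6.88, 6.04 and 6.65 in MEF. It was higher in CM than in MEF by 2.39 ± 0.38 (SE, limma adjusted p = 1.96e-04) and lower in CiCM than in CM with a difference of -2.11 ± 0.38 (limma adjusted p = 5.97e-04). With the larger constant added the Col15a1 differences were 1.47 and -1.33, and levelling on hybridisation controls gave 1.58 for CM minus MEF. Col18a1, the precursor of endostatin, was at 10.45, 10.52 and 10.61 in CiCM, 8.60, 7.96 and 7.66 in CM, and 10.56, 10.55 and 10.43 in MEF. It was lower in CM than in MEF with a difference of -2.44 ± 0.20 and differed by 0.01 (95% interval -0.42 to 0.45) between CiCM and MEF. Col4a4 and Col15a1 were the 2 members called lower in CiCM than in CM. Of 9 endothelial markers 8 were called higher in CM than in MEF, the exception being Flt1 (7.32 in CiCM, 10.10 in CM and 10.83 in MEF), and 9 were called lower in CiCM than in CM. Their summed signals were 516.8 to 696.6 in CiCM, 15491 to 17154 in CM and 2369 to 2476 in MEF. Pecam1 and Cdh5 averaged 3.49 and 5.07 in CiCM, 10.77 and 11.58 in CM, and 5.31 and 5.06 in MEF. The part of endothelial RNA in these collagen signals was not tested.

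Fibroblast markers were read beside the lower collagen signals of CM. All 13 reached the line in CM and 11 did so in CiCM and in MEF. Their summed signals were 69361 to 74818 in CiCM, 40895 to 64650 in CM and 88551 to 92230 in MEF. The summed signals of the 42 collagen genes were 153138 to 171052 in CiCM, 39860 to 50337 in CM and 182329 to 186423 in MEF. Pdgfra averaged 11.92 in CiCM, 10.64 in CM and 11.75 in MEF. In these bulk samples fewer cells of a type and less RNA per cell cannot be told apart, for fibroblasts as for any other cell. Of tendon markers, Scx averaged 8.23 in CiCM, 5.94 in CM and 6.12 in MEF, while Tnmd averaged 6.14 in CiCM, 4.17 in CM and 12.20 in MEF, so that list moved in both directions.

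Whether chains that share a trimer differed by unlike amounts was asked for 7 pairs with both chains tested, as the per-array log2 difference between the chains. With 3 arrays on each side, the exact two-sided permutation test has a smallest p of 0.1, and no adjusted p over the 21 tests was below 0.131, so no pair could pass. Col4a1 minus Col4a2 shifted by -0.02 between CiCM and MEF and 0.02 between CM and MEF, and by -0.17 and -0.28 with the mean over probe sets. Col1a1 minus Col1a2 shifted by -2.31 in CM relative to MEF without overlap (SD over 3 arrays 0.49 in CM and 0.21 in MEF), and by 0.23 with overlap in CiCM, where the probe sets of highest group mean gave -0.22. The CM minus MEF difference of Col1a2 ran from -4.07 to -2.43 over 3 probe sets, and the pair used the smallest in size. That of Col1a1 ran from -5.21 to -4.74 over 2, so the size of the CM shift depends on the probe sets. Col5a1 minus Col5a3 shifted by 1.41 for CiCM and by -1.80 for CM relative to MEF, with no overlap in either, and the mean over probe sets gave 0.15 and -3.66. The second Col5a3 probe set in that mean was below the line in every group, at 3.13 in CiCM, 4.42 in CM and 2.32 in MEF. Col8a1 minus Col8a2 shifted by -0.60 for CiCM and 1.30 for CM relative to MEF, and the CM shift was 0.55 with 32 added and -0.39 with the larger constant added. Col8a2 was below the line in CM. Col5a1 minus Col5a2 shifted by -0.55 and 0.61 in the same comparisons, Col6a1 minus Col6a2 by -0.14 and 0.18 (0.058 for CM with the mean over probe sets), and Col6a2 minus Col6a3 by 0.50 and 0.80.

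**Figure D4:**
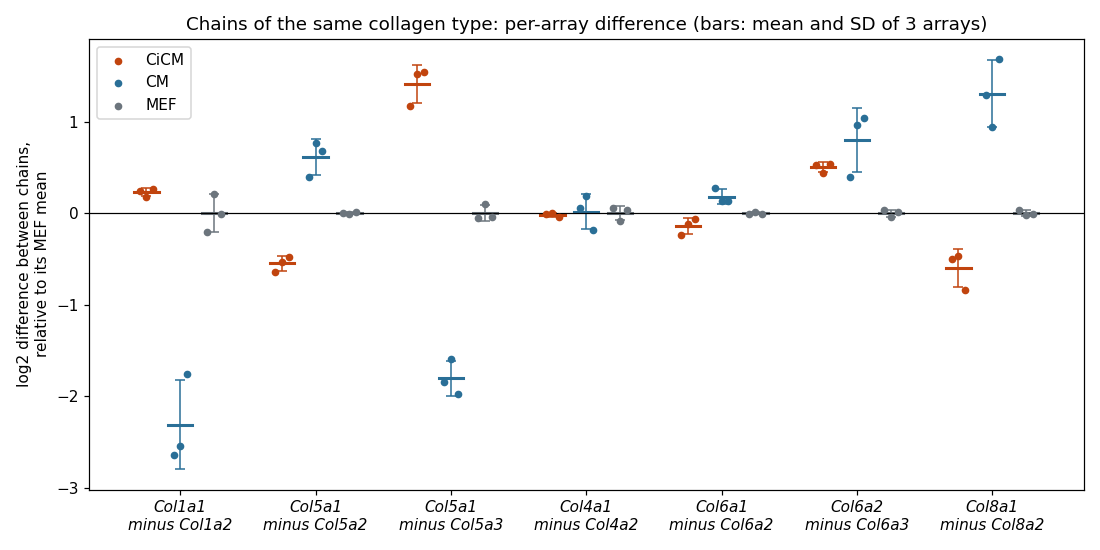
Log2 difference between paired chains on each array, relative to the mean of that pair in MEF, for 7 pairs in CiCM, CM and MEF, with bars for the mean and SD of 3 arrays. Col4a1 minus Col4a2 lies at about 0 in all groups. By the probe sets used, Col1a1 minus Col1a2 is lower in CM, and Col5a1 minus Col5a3 is higher in CiCM and lower in CM.

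Genes that modify, fold, export, cleave or bind collagen were counted in the same fit. Of 35 such genes with a probe set, 32 were tested. In CiCM against MEF none was called higher and 6 were called lower, in CM against MEF 3 were higher and 23 lower, and in CiCM against CM 14 were higher and 5 lower (23 and 3 with arrays levelled on hybridisation controls). Over all genes the shares called higher and lower were 11.6% and 12.2%, 22.1% and 21.8%, and 16.5% and 19% in these comparisons. The median differences of the processing genes were -0.44, -1.42 and 0.95, against -0.03 over all genes in each. Serpinh1, which encodes the collagen chaperone HSP47, was at 13.90 in each CiCM array, at 12.61, 12.12 and 12.35 in CM, and at 14.19, 14.28 and 14.26 in MEF. It was lower in CM than in MEF with a difference of -1.89 ± 0.11 (SE, limma adjusted p = 9.90e-08) and higher in CiCM than in CM by 1.55, and its difference of -0.34 for CiCM minus MEF was under the minimum. Creb3l1, a transcription factor of collagen secretion, was lower in CM than in MEF with a difference of -3.28 and higher in CiCM than in CM by 2.77. Mrc2, a receptor for collagen uptake, was higher in CiCM than in CM by 3.40. Adamts2, which removes an end peptide of procollagen, had no probe set naming it alone. Plod1, a lysyl hydroxylase, was not called in any comparison, with means of 10.36 in CiCM, 10.61 in CM and 10.35 in MEF.

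Prolyl hydroxylases add the hydroxyl groups that keep the helix stable. P4ha1 was at 11.49, 11.58 and 11.36 in CiCM, 9.89, 9.07 and 8.64 in CM, and 12.28, 12.29 and 12.02 in MEF. P4ha2 was lower than in MEF with differences of -1.31 in CiCM and -2.38 in CM. P4ha3 differed most between arrays of a group, at 6.36, 6.65 and 6.34 in CiCM, 7.23, 13.17 and 13.32 in CM, and 9.85, 9.72 and 10.02 in MEF. CM replicate 1 lay far below the other CM arrays for P4ha3, and without it P4ha3 was called higher in CM than in MEF by 3.38. The P4ha3 difference of -3.42 for CiCM minus MEF had a limma adjusted p of 0.0420. The call was lost in each of 6 fits that left out a CiCM or MEF array (limma adjusted p of 0.0827 to 0.0965). It was also lost under quantile normalization (limma adjusted p = 0.0524) and with the larger constant (limma adjusted p = 0.0770). The mean over probe sets and the fit with no variance trend lost it too (limma adjusted p = 0.0517 and 0.0809). The limma adjusted p was 1.07e-08 without CM replicate 1 and 8.01e-08 with the 2 groups alone. CiCM and MEF arrays did not overlap, and the P4ha3 SD was 0.17 in CiCM, 3.47 in CM and 0.15 in MEF. Plod2, a lysyl hydroxylase of collagen telopeptides, was lower in CM than in MEF with a difference of -1.80, and differed by -0.85 for CiCM minus MEF.

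Procollagen is trimmed outside the cell by Bmp1-type proteases with the help of enhancer proteins. Bmp1 and the enhancer Pcolce were not called between CiCM and MEF, were lower in CM than in MEF with differences of -1.87 and -1.84, and were higher in CiCM than in CM by 1.68 and 1.66. The second enhancer, Pcolce2, had another order, at 2.74, 5.10 and 2.09 in CiCM, 11.10, 10.92 and 10.62 in CM, and 9.47, 9.14 and 9.19 in MEF. Pcolce2 was lower in CiCM than in MEF with a difference of -5.96 ± 0.60 (SE, limma adjusted p = 1.69e-05) and lower in CiCM than in CM with a difference of -7.58, which were -2.39 and -3.83 with the larger constant added. Its CM minus MEF difference of 1.61 had a limma adjusted p of 0.0335. The call was lost in each of 6 fits that left out a CM or MEF array (limma adjusted p of 0.0532 to 0.0811). It was also lost with median centring (1.25), levelling on hybridisation controls (0.81) and no variance trend (limma adjusted p = 0.0604). The limma adjusted p was 3.48e-05 with the 2 groups alone and 1.45e-04 without CiCM replicate 2. CM and MEF arrays did not overlap, and the Pcolce2 SD was 1.59 in CiCM, 0.24 in CM and 0.18 in MEF. Tll1, a protease related to Bmp1, was at 4.77, 4.77 and 0.00 in CiCM, 5.78, 5.13 and 5.21 in CM, and 9.48, 9.67 and 9.57 in MEF. Tll1 was lower than in MEF in both groups, with differences of -6.39 and -4.20, or -2.61 and -2.39 with the larger constant added. Colgalt2, a collagen galactosyltransferase, was at 7.71, 8.11 and 8.20 in CM and below the line in CiCM and MEF, and was higher in CM than in MEF by 4.96 (2.80 with 32 added and 1.49 with the larger constant).

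**Figure D5:**
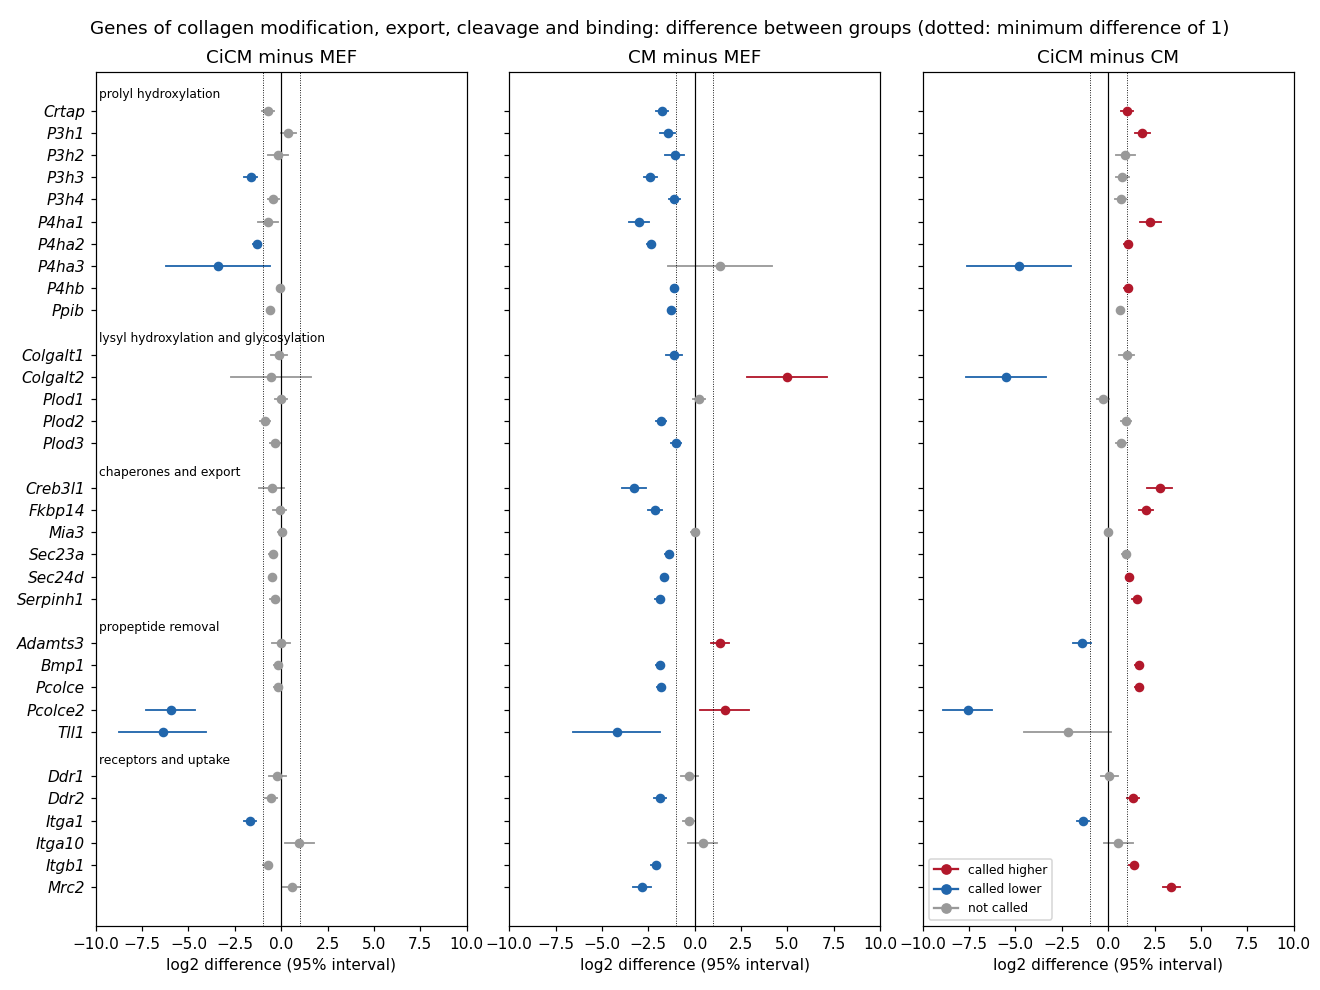
Log2 differences with 95% intervals of 32 tested genes of collagen modification, export, cleavage and binding for CiCM minus MEF, CM minus MEF and CiCM minus CM, with dotted lines at the minimum difference of 1. Calls as lower number 6 for CiCM minus MEF and 23 for CM minus MEF, and Pcolce2, Colgalt2 and Adamts3 are the 3 genes called higher in CM than in MEF.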

How the data were processed

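Total RNA of 9 samples was labelled with a 3' kit and hybridised to 1-colour Affymetrix arrays, per the labels' protocols. The authors deposited log2 values of 45101 probe sets. Per the submitters' processing notes they used MAS5, with no version given. No label gives the scale: it was read from the values, whose linear mean without the outer 2% at each end was 500.003 on every array. Detection calls and hybridisation batches were not analysed here, and batch and group cannot be told apart. The number of arrays limits the precision.

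Names came from the GEO platform's annotation, some of it possibly out of date: 34945 probe sets had 1 symbol, 932 several, 9160 none, and 64 were controls. A gene was read from the probe set whose mean over 9 arrays was highest. Col6a6 and Col28a1 had no probe set of their own here. The deposited values were used without an added constant. Differences were tested with limma 3.58.1 in R 4.3.3 (lmFit, eBayes with a variance trend, two-sided) in 1 fit of 9 arrays, with Benjamini-Hochberg adjustment over 12559 genes, and the script was tested on simulated data. Chain pairs were tested by exact permutation.

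The members, classes, marker and processing lists and printed promoters were chosen with earlier results of these data known. Named were every collagen member, 9 processing genes whatever their call with up to 4 called per direction, and defining markers of the lists described. The Schwann, epithelial and osteoblast lists were read but their markers were not named. For CiCM against MEF, 1 of 4 tested Schwann and 1 of 4 tested epithelial markers were called higher. Of 3 tested osteoblast markers 1 was called lower. Nppa was named after its values were seen. Same-numbered replicates did not deviate together (r -0.02 to 0.07), so numbers were not taken as pairs. Protein features, planned from a RefSeq protein table, were not analysed here. Alternatives were 32 or 4 times 32 added to linear signals, other filters, quantile normalization, median centring, levelling on hybridisation controls, the mean over probe sets, 2 groups alone, no variance trend, no minimum difference, a replicate block, leaving out each array and, added after seeing the data, each gene's probe set with the highest group mean.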

Additional observations from a re-analysis of the deposited data

How the results depend on the processing

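Over 22 alternatives the 31 tested collagen genes' differences gave 2022 values, of which 1967 kept their side of the threshold, 39 passed it newly, 15 no longer passed and 1 reversed: Col23a1 for CM against MEF, at -0.20 with each gene's probe set of highest group mean. Another 44 values, of 18 differences that were called neither way, changed sign, with sizes of up to 0.76. The replicate block changed no count of calls: for example, collagen calls stayed at 4 higher and 6 lower for CiCM against MEF. Leaving out each array in turn gave 4 to 5 higher and 4 to 6 lower collagen calls for CiCM against MEF, 4 to 5 and 19 to 22 where CM was set against MEF, and 18 to 20 and 2 where CiCM was set against CM. Processing genes called higher in CiCM than in MEF numbered 1 without CiCM replicate 3, and 0 in the other such fits.

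With 32 added, Col8a1 minus Col8a2 was 0.55 (CM against MEF) and -1.17 (CiCM against CM). With 4 times as much added it was -0.39 and -0.25, Col5a1 minus Col5a3 was 0.94 for CiCM against MEF and 2.92 for CiCM against CM, and 3 processing genes were lower in CiCM than in CM. A filter at the 75th percentile, which tests fewer genes, left 1 collagen and 3 processing genes lower in CiCM than in CM and 1 processing gene higher in CM than in MEF. Under quantile normalization Col5a1 minus Col5a3 was 1.17 and Col6a2 minus Col6a3 0.59 for CiCM against MEF. Median centring left 1 processing gene higher in CM than in MEF. Levelling on hybridisation controls left 2 collagen and 1 processing gene higher in CM than in MEF, and 23 processing genes higher and 3 lower in CiCM than in CM. The mean over probe sets gave, for CiCM against MEF, -0.18 for Col5a1 minus Col5a2, 0.15 for Col5a1 minus Col5a3, -0.17 for Col4a1 minus Col4a2 and -1.17 for Col8a1 minus Col8a2. For CM against MEF it gave -3.66 for Col5a1 minus Col5a3, -0.28 for Col4a1 minus Col4a2, 0.058 for Col6a1 minus Col6a2 and 0.35 for Col8a1 minus Col8a2. For CiCM against CM it gave 3.81, -0.23 and -1.51 for Col5a1 minus Col5a3, Col6a1 minus Col6a2 and Col8a1 minus Col8a2. The second Col5a3 probe set in this mean was below the line in every group. Without a minimum difference CiCM had 2 processing genes above and 16 below MEF, and 22 were higher in CiCM than in CM. With the probe set of highest group mean, Col1a1 minus Col1a2 was -0.22 for CiCM against MEF. The cause of these shifts was not tested. The median SD of the 31 tested collagen genes over 3 arrays was 0.18 in CiCM, 0.35 in CM and 0.07 in MEF.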
